A study of Homo sapiens with 18 samples.

Results

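The genes described here are 40 members of glucose uptake, glycolysis, glycogen metabolism and the control of pyruvate dehydrogenase, the mitochondrial enzyme complex that turns pyruvate into acetyl-CoA. They were taken by gene symbol, through the Ensembl identifiers, from 61806 rows of a count table. The table holds poly(A) RNA-seq of 18 libraries from HepG2, an established human hepatoma line, and from APOA4-KO, a HepG2 line in which CRISPR-Cas9 had cut the apolipoprotein gene APOA4. Cells were taken untreated (0 h) or held in 1% oxygen for 24 h or 48 h, which makes 6 groups of 3 libraries each. APOA4-KO was a single edited line grown from single cells, so the edit and whatever else set that line apart cannot be told apart. Neither line had a normoxic culture at 24 h or 48 h, so low oxygen and time in culture cannot be told apart either. Nothing in the labels says that the 3 libraries of a group came from separate cultures, and the p-values then measure only the spread between these libraries.

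Cells take up glucose through SLC2A transporters, trap it with hexokinases and split it to pyruvate, which lactate dehydrogenase turns into lactate when oxygen is short. Pyruvate dehydrogenase kinases switch off the complex that would burn pyruvate, and PFKFB enzymes set the level of fructose 2,6-bisphosphate, which speeds phosphofructokinase. Many of these genes are textbook targets of hypoxia-inducible factors, which bind a short core sequence near gene starts, and hepatocytes also store glucose as glycogen.

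Library totals ran from 76481820 to 91604947 counts. Levels are given as CPM (counts scaled to a common library size) after TMM scaling, which evens out library composition. Unless said otherwise, levels of different genes are set side by side only as FPKM, the deposited values per kilobase of gene. APOA4 itself had 551 to 702 counts in the 9 APOA4-KO libraries and 702 to 1968 in the 9 HepG2 libraries, and counts over the whole gene do not show small insertions or deletions. Of the hepatocyte markers, ALB stood at 13808 to 19612 CPM and HNF4A at 280.4 to 392 CPM. AFP stood at 127.6 to 190.2 CPM in HepG2 and at 949 to 1539 CPM in APOA4-KO, FGB at 100.5 to 129 and 262 to 852 CPM, and TTR at 41.2 to 71.3 and 129.7 to 174 CPM. The sum of 8 such markers ran from 36329 CPM in HepG2 at 0 h to 53289 CPM in APOA4-KO at 24 h. The sum of 8 markers of other cell types was 128.1 to 200.1 CPM, and single markers varied between libraries of a group. Over all 18 libraries, KRT5 ran from 0 to 32.6 CPM, PTPRC from 0 to 7.81 CPM and DCN from 0 to 1.67 CPM. The part of these shifts in the results below was not tested.

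Of the 40 genes, 39 had enough counts to be tested, among 19743 genes in all. GYS2, the liver form of glycogen synthase, had no count in any library, which allows up to 3 counts or 0.0327 to 0.0392 CPM, a limit that covers counting error only. Other genes on the same strand cover 87.5% of the exon bases of GYS2, and how reads in such overlaps were counted is not stated, so the 0 does not show that the gene was silent. The test was edgeR's quasi-likelihood test with Benjamini-Hochberg adjustment, and a gene is said to have risen or fallen where the adjusted p was under 0.05. A second, stricter rule also asked for a change of at least 1 on the log2 scale, and the genes that met both are said to be past both limits. Of the 39 genes, 14 were past both limits in at least 2 of 9 comparisons, 5 in 1 comparison and 20 in none, beside 15.9% of all genes tested in at least 2 and 9.91% in 1.

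Most of the 39 genes rose after low oxygen in both lines. In HepG2 at 24 h, 21 of the 39 genes rose and 3 fell, beside 11.4% and 18.3% of all genes tested. In bulk RNA, less RNA per cell and fewer cells of a kind cannot be told apart. Past both limits were 5 rises (SLC2A3, HK2, PFKFB3, PFKFB4 and PDK1), beside 2.06% of all genes that rose and 1.02% that fell past them. PFKFB3 and PDK1 fell short of the limits with library sizes alone, and HK2, PFKFB3, PFKFB4 and PDK1 did with limma on log2(FPKM + 1). That scale shrinks changes of low genes, and the FPKM were not TMM-scaled. At 48 h, 24 genes rose and 2 fell (all genes: 13.1% and 14.6%), and 12 rises were past both limits (all genes: 1.41% higher and 0.765% lower), of which limma did not keep that of UGP2.

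In APOA4-KO at 24 h, 25 genes rose and 6 fell, beside 21.5% and 22.8% of all genes. Past both limits were 11 rises and 2 falls, those of PDK2 and PDK4, beside 3.69% and 2.19% of all genes. Limma did not keep those of HK1, PDK3, PDK4 and GYS1, and library sizes alone did not keep that of GYS1. At 48 h, 27 genes rose and 4 fell (all genes: 23.9% and 25.9%), and 13 rises were past both limits (all genes: 5.34% higher and 6.85% lower). Of these, limma did not keep HK1, ALDOA, ALDOC, PDK1 and UGP2, and library sizes alone did not keep ALDOA, ALDOC and UGP2. The median log2 change of the 39 genes was 0.16 and 0.59 in HepG2 at 24 h and 48 h and 0.37 and 0.40 in APOA4-KO, where the medians of all genes lay between -0.068 and -0.0096. With library sizes alone in place of TMM, the median of all genes in APOA4-KO at 48 h moved by -0.16, the split of the 39 genes became 23 up and 8 down, and PGM1 and PGAM1 changed sign.

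Between the lines at 0 h, 23 genes were higher in APOA4-KO and 2 were lower, beside 12.9% and 17.6% of all genes. HK1, PFKFB4 and LDHB were past both limits, each higher, beside 2.65% of all genes higher and 1.66% lower. None of the 3 reached the limit of 1 with limma on log2(FPKM + 1), where their adjusted p stayed under 0.05. At 24 h, 24 genes were higher and 5 lower in APOA4-KO (all genes: 23.6% and 24.6%). Of these, 9 were past both limits, all higher: HK1, HK2, PFKFB3, PFKFB4, ENO2, PDK1, PDK3, GYS1 and GBE1 (all genes: 4.5% higher and 3.28% lower). Limma did not keep PDK3.

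At 48 h, 22 genes were higher and 10 lower in APOA4-KO, beside 23.5% and 27.3% of all genes, and HK1, HK2 and PDK4 were past both limits, beside 6.37% higher and 7.18% lower. With limma on log2(FPKM + 1), PDK4 was lost at a log2 difference of 0.16 and HK1 kept its call at 1.28. Library sizes alone moved the median of all genes there by -0.15, made the split 19 to 15 and changed the sign of PFKL and PGM1. Whether the lines changed unequally from their 0 h level was tested as an interaction. At 24 h, 19 genes changed more upward in APOA4-KO and 9 more upward in HepG2 (all genes: 16.8% and 15.4%), and 5 were past both limits, HK1, PFKFB3, PDK3, GYS1 and GBE1 (all genes: 1.41% and 1.19%), PDK3 not with limma.

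At 48 h these interaction counts were 16 and 10 (all genes: 18.6% and 17.8%). HK1 was past both limits upward and PFKFB4 and PDK1 downward (all genes: 3.43% and 3.99%), and with limma PFKFB4 alone. Library sizes alone moved the median of all genes by -0.17 in that comparison, made the split 8 to 13 and changed the sign of SLC2A1, PFKL and PGK1. The comparisons within a line share its 0 h libraries, and the interactions share libraries with all the others.

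**Figure D1:**
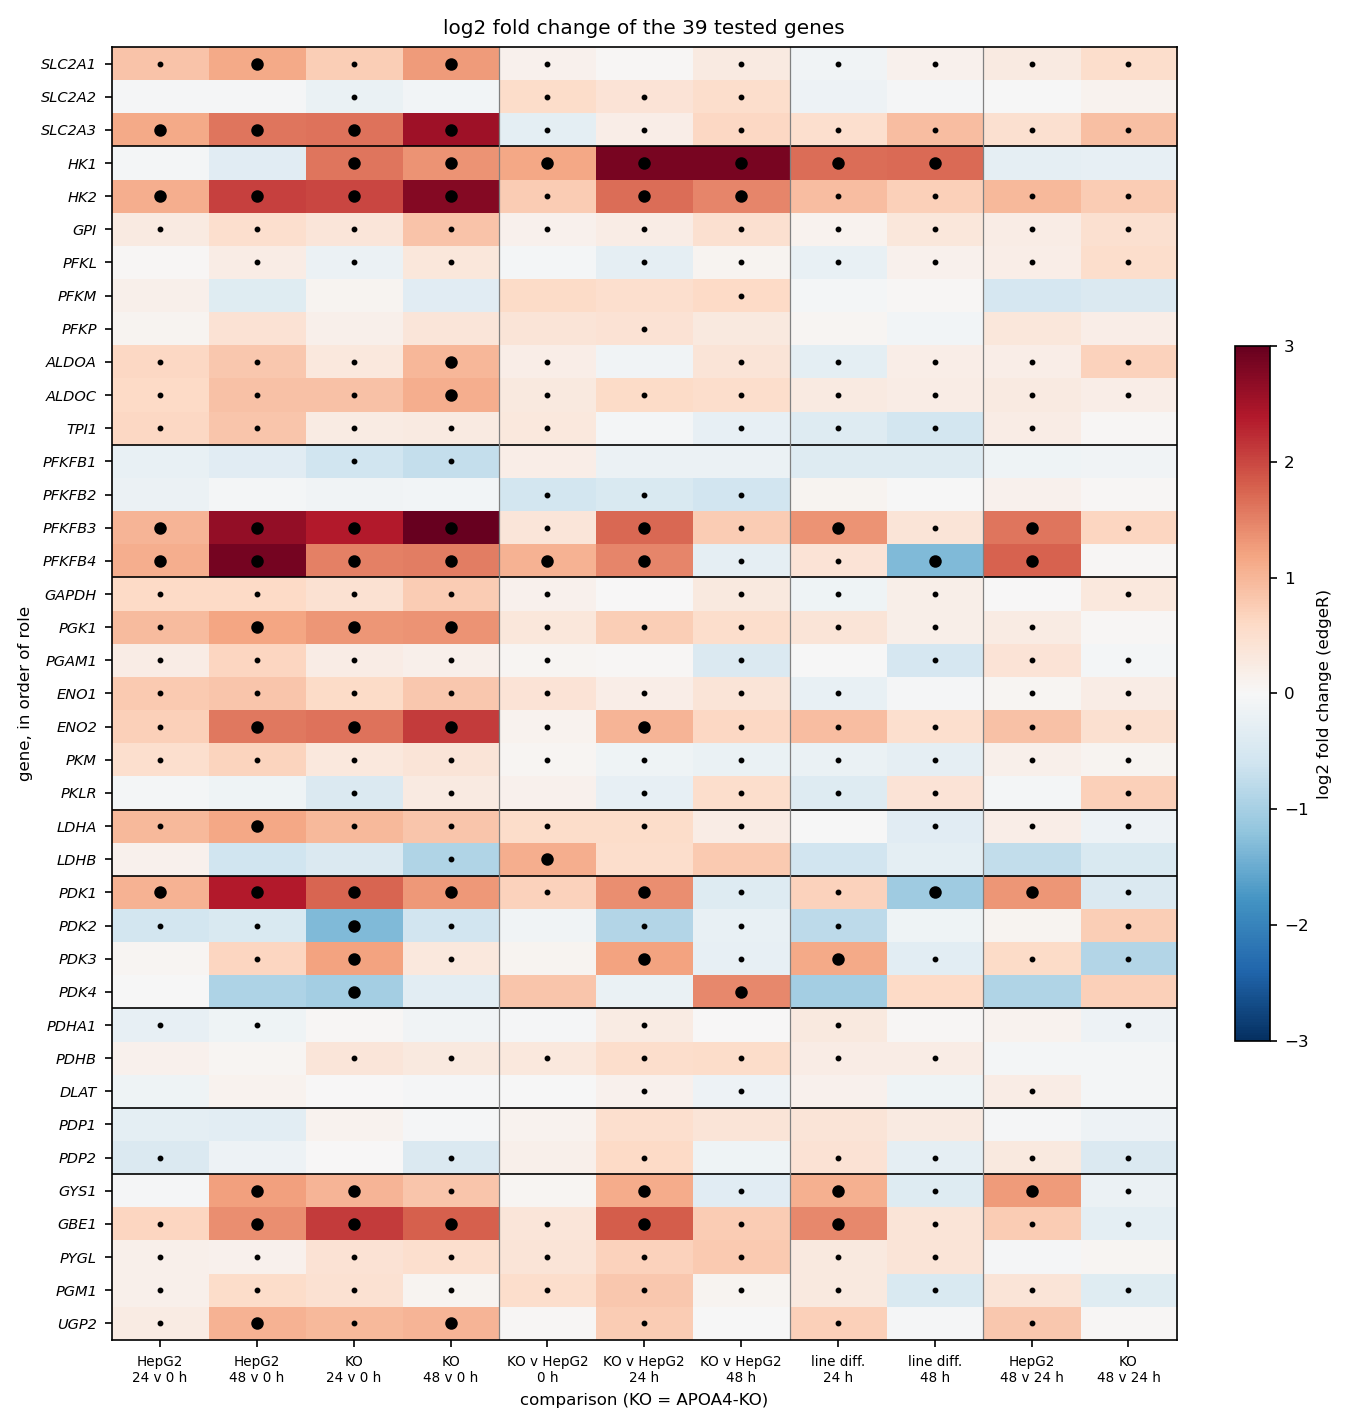
Log2 fold changes of the 39 tested genes (rows, by role, from transporters at the top to glycogen enzymes at the bottom) in 11 comparisons (columns), on a colour scale from -3 to 3. Small dots mark adjusted p under 0.05 and large dots genes past both limits, of which there were 5 in HepG2 at 24 h and 12 at 48 h.

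Hypoxia-inducible factors bind the core ACGTG or GCGTG, so the RefSeq promoter windows of the members (GRCh38.p14, 250 bases before and 50 after each start) were searched for both, on either strand. A window was found for 36 members, 14 of them with several starts, and PDP1, SLC2A3, GYS2 and PFKFB2 had none. Of the 36 genes, 31 or 86.1% held a core in at least 1 window, beside 52.4% of all 27305 genes with a window. By window rather than by gene, the shares were 61.5% of 65 and 48.4% of 35116, and the median GC content was 66.3% and 58.7%. The core ACGTG overlaps the E-box CACGTG, which stood in 15.4% of the member windows and in 7.26% of all windows.

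Stretches upstream of the start are shown for 9 of the 14 members past both limits in at least 2 comparisons, and for PDK2, which fell. They were picked after the search, so each carries a core. Of the other 5, PDK4 held no core, SLC2A1 held 1 after its start and none before it, SLC2A3 had no window, PDK3 held upstream cores, and HK1 held an upstream core in 1 of 7 windows. Capitals mark the cores on either strand, each stretch reads 5′ to 3′ along the gene, and the bases are those of RefSeq. They are PGK1 (phosphoglycerate kinase), HK2 (hexokinase), PFKFB3 and PFKFB4, PDK1, GYS1 (glycogen synthase), GBE1 (branching enzyme), UGP2 (UDP-glucose pyrophosphorylase), ENO2 (enolase) and PDK2.
PGK1 chrX:78104017-78104089 (plus strand): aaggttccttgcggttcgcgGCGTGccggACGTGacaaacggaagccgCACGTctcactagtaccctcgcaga
HK2 chr2:74834956-74835001 (plus strand): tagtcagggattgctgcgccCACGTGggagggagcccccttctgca
HK2 chr2:74835001-74835046 (plus strand): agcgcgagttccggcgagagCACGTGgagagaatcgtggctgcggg
PFKFB3 chr10:6202804-6202849 (plus strand): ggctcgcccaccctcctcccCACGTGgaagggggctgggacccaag
PFKFB4 chr3:48556945-48556989 (minus strand): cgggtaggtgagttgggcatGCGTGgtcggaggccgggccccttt
PDK1 chr2:172556061-172556089 (plus strand): cctgctgcccgcCACGTccctCACGTacc
GYS1 chr19:48993370-48993437 (minus strand): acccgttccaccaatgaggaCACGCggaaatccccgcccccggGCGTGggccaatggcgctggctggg
GBE1 chr3:81761785-81761813 (minus strand): caggtgccagccGCGTGagtgggcggaga
GBE1 chr3:81761741-81761769 (minus strand): tacccgctccggACGTGcgtcccggcatc
UGP2 chr2:63840865-63840909 (plus strand): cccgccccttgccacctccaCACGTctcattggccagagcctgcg
ENO2 chr12:6914450-6914478 (plus strand): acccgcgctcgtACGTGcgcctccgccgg
PDK2 chr17:50095202-50095247 (plus strand): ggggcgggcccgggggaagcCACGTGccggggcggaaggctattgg
PGK1 held 3 cores within the stretch shown, 2 of them with the letters ACGTG. GYS1 and PFKFB4 held GCGTG alone in their windows. PDK2 held ACGTG within an E-box although its level fell at low oxygen, so that cores stood both in windows of members that rose and in a window of one that fell. A match of letters is a description of the sequence and not a binding site. Upstream is counted from the RefSeq start, and genes can have other starts. The stretches of PDK1, ENO2 and GBE1 lay wholly within annotated exons. Those of PGK1, HK2, PFKFB3, PFKFB4 and PDK2 lay outside exons but inside the annotated span of their gene, and those of GYS1 and UGP2 lay outside that span.

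Among the glucose transporters, SLC2A1 and SLC2A3 rose in both lines at both times, and SLC2A2, the low-affinity carrier of the liver, did not. SLC2A1 (GLUT1, ENSG00000117394, chr1:42925375-42959176, minus strand) carries glucose in most tissues. Its level in HepG2 was 471, 467 and 478 CPM at 0 h, 882, 846 and 849 CPM at 24 h and 1059, 1038 and 1030 CPM at 48 h. In APOA4-KO it was 536, 514 and 510.2 CPM, 869.7, 862 and 888 CPM and 1256, 1279 and 1245 CPM at the same times. The groups of one line did not overlap, and the lines overlapped at 24 h only. The log2 change was 1.14 ± 0.021 (SE) in HepG2 and 1.28 ± 0.022 in APOA4-KO at 48 h.

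SLC2A3 (GLUT3, ENSG00000059804, chr12:7919230-7936275, minus strand), a high-affinity carrier, rose further. HepG2 held 440, 429.9 and 442 CPM of SLC2A3 at 0 h, 939.5, 961 and 972 CPM at 24 h and 1339, 1350 and 1335 CPM at 48 h. APOA4-KO held 366, 351 and 345 CPM, 1069, 1113 and 1096 CPM and 2023, 2064 and 2067 CPM. The 6 groups did not overlap, and APOA4-KO stood below HepG2 at 0 h and above it at 24 h and 48 h. The log2 change at 48 h was 1.62 ± 0.021 in HepG2 and 2.54 ± 0.022 in APOA4-KO, and the interaction was 0.92 ± 0.03 (adjusted p = 3.37e-14 by edgeR). SLC2A3 has a near-identical neighbour, SLC2A14, and how reads common to both were counted is not stated, so the level of each is uncertain. SLC2A2 ranged from 24.3 to 42.6 CPM and was higher in APOA4-KO at each time, by 0.56, 0.40 and 0.52 on the log2 scale. Its small fall in APOA4-KO at 24 h (-0.19) lost the call without APOA4-KO 0 h replicate 2 or 24 h replicate 1 or 3.

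Of the hexokinases, which phosphorylate glucose as it enters, HK2 rose in both lines and HK1 in APOA4-KO, and HK1 had the largest log2 difference between the lines of the 39 genes at each time. HK2 (ENSG00000159399, chr2:74833981-74893359, plus strand), the inducible form bound to mitochondria, was measured in HepG2 at 79.7, 76.5 and 81.8 CPM at 0 h, 168, 171 and 168 CPM at 24 h and 328, 333 and 328 CPM at 48 h. The APOA4-KO libraries had 135, 134 and 132 CPM, 526, 549.8 and 538 CPM and 897, 905 and 922 CPM. All 6 groups of HK2 were separate, and APOA4-KO exceeded HepG2 at each time. The log2 difference between the lines was 0.75 ± 0.024 before treatment, 1.67 ± 0.024 at 24 h and 1.46 ± 0.024 at 48 h. Both lines rose, by 2.06 ± 0.024 in HepG2 and 2.76 ± 0.025 in APOA4-KO at 48 h, and the interaction was 0.71 ± 0.033 (adjusted p = 5.31e-12 by edgeR).

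HK1 (ENSG00000156515, chr10:69269984-69401884, plus strand), the form of most tissues, was low in these cells. In HepG2 the libraries held 3.04, 2.43 and 2.77 CPM of HK1 at 0 h, 2.91, 2.68 and 2.31 CPM at 24 h and 1.58, 2.34 and 2.59 CPM at 48 h, and these groups overlapped. In APOA4-KO they held 6.43, 6.65 and 5.46 CPM at 0 h, 21.6, 18 and 16.9 CPM at 24 h and 14.9, 15.1 and 17.2 CPM at 48 h. Each APOA4-KO library lay above each HepG2 library. The log2 difference between the lines was 1.17 ± 0.15 before treatment, 2.84 ± 0.16 at 24 h and 2.86 ± 0.16 at 48 h. Its counts ran from 149 to 1823 per library. HK1 rose in APOA4-KO at both times and did not pass the test in HepG2 at either, and the interactions were 1.67 ± 0.22 and 1.69 ± 0.22 (adjusted p = 6.85e-06 and 4.49e-06 by edgeR). Per length HK2 still exceeded HK1, at 139.6 ± 1.32 FPKM against 2.27 ± 0.179 FPKM in APOA4-KO at 48 h (SD, n = 3).

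The other enzymes of the first stage changed by less on the log2 scale than HK2 did at 48 h. GPI (489 to 982 CPM over the libraries), which turns glucose 6-phosphate into fructose 6-phosphate, rose in each line and time by 0.27 to 0.85 on the log2 scale. The aldolases split the six-carbon sugar. ALDOA stood at 2370 ± 58.1, 3622 ± 299 and 4155 ± 92 CPM (mean ± SD, n = 3) at 0 h, 24 h and 48 h in HepG2 and at 2699 ± 111, 3371 ± 205 and 5416 ± 87 CPM in APOA4-KO. Its log2 change in APOA4-KO at 48 h was 1.00 ± 0.048 and 0.996 without APOA4-KO 48 h replicate 2, which is under the stricter limit. Other annotated genes cover 53.5% of the exon bases of ALDOA, and its counts are uncertain to that extent.

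ALDOC, the aldolase of brain, stood at 74.7 ± 3.77, 114 ± 1.91 and 136 ± 3.1 CPM in HepG2 and 92.3 ± 7.14, 170.5 ± 5.23 and 197 ± 3.58 CPM in APOA4-KO, a rise of 1.09 ± 0.046 at 48 h in the latter. TPI1 (904 to 1641 CPM), which interconverts the triose phosphates, rose by 0.84 in HepG2 and by 0.28 in APOA4-KO at 48 h, and the interaction was -0.56 ± 0.032 (adjusted p = 7.96e-11 by edgeR). Of the phosphofructokinases, PFKL (371 to 572 CPM), the liver form, made up 97.4% ± 0.273 of the summed FPKM in HepG2 at 0 h, and its largest log2 change in the 9 comparisons was 0.35. PFKM (1.33 to 4.03 CPM) and PFKP (8.07 to 17.6 CPM), the muscle and platelet forms, passed the test in 1 comparison each, PFKM at 48 h and PFKP at 24 h between the lines. The call of PFKM was lost without any 1 of 11 libraries, to a log2 difference of 0.35 without APOA4-KO 48 h replicate 1, and that of PFKP without any 1 of 5, to 0.10 without APOA4-KO 24 h replicate 1.

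**Figure D2:**
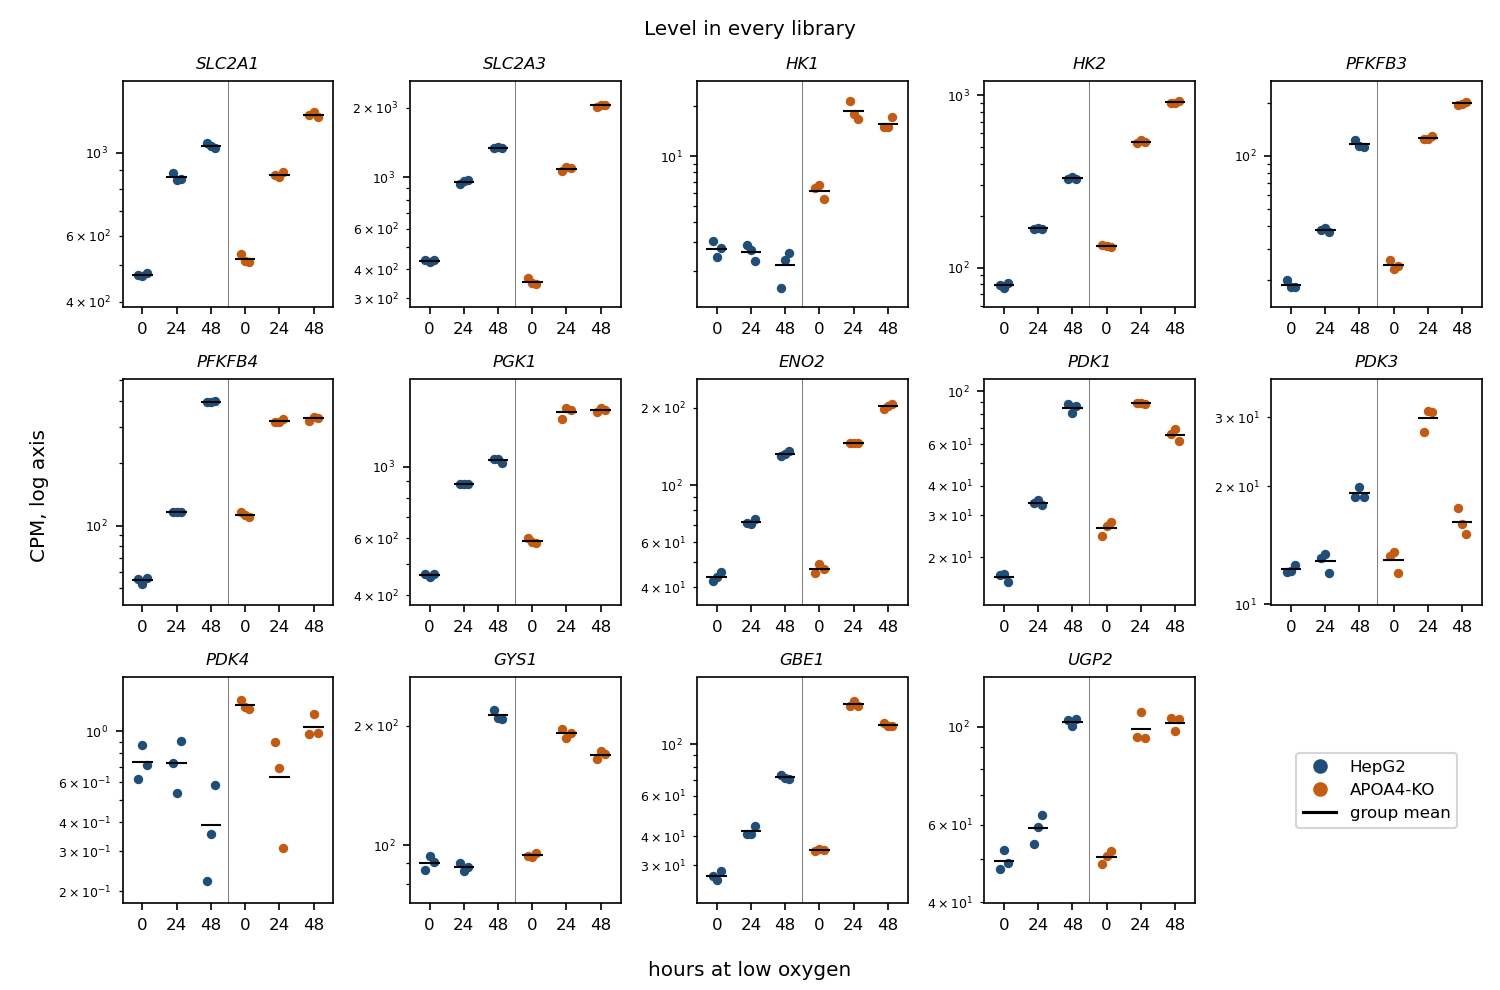
CPM (log axis) of the 14 genes past both limits in at least 2 comparisons, in every library, against hours at low oxygen; points are libraries, blue for HepG2 and orange for APOA4-KO, and bars are group means. Each APOA4-KO library of HK1 lies above each HepG2 library, and GYS1 overlaps between 0 h and 24 h in HepG2 and is separate between them in APOA4-KO.

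PFKFB3 and PFKFB4, which make and break fructose 2,6-bisphosphate, had the largest rises of the members in HepG2 at 48 h, and both rose more by 24 h in APOA4-KO than in HepG2. PFKFB3 (ENSG00000170525, chr10:6144934-6254644, plus strand) strongly favours making the activator. The HepG2 libraries held 19.9, 18.2 and 18.1 CPM of it at 0 h, 38.2, 39.3 and 37.2 CPM at 24 h and 122, 114 and 112 CPM at 48 h. The APOA4-KO libraries held 25.8, 22.9 and 24 CPM, 125, 124 and 129 CPM and 195, 197 and 203 CPM. APOA4-KO at 24 h had therefore passed the HepG2 level of 48 h, with all groups of PFKFB3 separate. The log2 change was 1.03 ± 0.048 and 2.63 ± 0.049 in HepG2 at 24 h and 48 h and 2.38 ± 0.048 and 3.03 ± 0.049 in APOA4-KO. The interaction was 1.35 ± 0.066 at 24 h and 0.40 ± 0.066 at 48 h (adjusted p = 3.47e-11 and 7.43e-05 by edgeR).

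PFKFB4 (ENSG00000114268, chr3:48517684-48562015, minus strand) stood in HepG2 at 55, 52.4 and 55.9 CPM at 0 h, 117, 116 and 116 CPM at 24 h and 395, 394 and 397 CPM at 48 h. In APOA4-KO it stood at 116, 112 and 110.1 CPM, 317, 317 and 326 CPM and 319.9, 335 and 331 CPM. HepG2 was the lower line at 0 h and 24 h and the higher line at 48 h, and the 24 h and 48 h libraries of APOA4-KO overlapped. The log2 difference of APOA4-KO from HepG2 was 1.05 ± 0.027 before treatment, 1.46 ± 0.027 at 24 h and -0.27 ± 0.026 at 48 h. Its interaction turned from 0.41 ± 0.037 at 24 h to -1.32 ± 0.037 at 48 h (adjusted p = 8.53e-08 and 6.36e-15 by edgeR).

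PFKFB1 and PFKFB2, the liver and heart forms of this enzyme, were low and did not rise. PFKFB1 ranged from 0.848 to 1.9 CPM and fell in APOA4-KO, with log2 changes of -0.60 at 24 h and -0.71 at 48 h. Both falls lost the call without 1 library, the second without APOA4-KO 48 h replicate 3 (-0.57) and the first without APOA4-KO 0 h replicate 2 or 3 or 24 h replicate 1 or 2 (-0.61 to -0.49). PFKFB2 ranged from 4.37 to 8.39 CPM and was lower in APOA4-KO at each time, with log2 differences of -0.55, -0.46 and -0.57.

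In the second stage of glycolysis, which turns triose phosphate into pyruvate, PGK1 and ENO2 were past both limits. PGK1 (ENSG00000102144, chrX:77910739-78129296, plus strand), which makes the first ATP of the pathway, was at 466, 454 and 464 CPM at 0 h, 884, 883 and 886 CPM at 24 h and 1052, 1059 and 1027 CPM at 48 h in HepG2. The APOA4-KO values of PGK1 were 602, 584 and 579 CPM, 1408, 1515 and 1494 CPM and 1473, 1523 and 1496 CPM. APOA4-KO was the higher line at each time, and its 24 h and 48 h libraries overlapped. The log2 change at 48 h was 1.18 ± 0.023 in HepG2 and 1.35 ± 0.024 in APOA4-KO.

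ENO2 (ENSG00000111674, chr12:6913745-6923698, plus strand), the enolase of neurons, was at 42.4, 43.9 and 45.9 CPM at 0 h, 70.9, 70.3 and 74.1 CPM at 24 h and 129, 132 and 136 CPM at 48 h in HepG2. In APOA4-KO its values were 45.4, 49.3 and 47 CPM, 146, 146 and 145 CPM and 198, 202 and 207 CPM. The lines overlapped at 0 h and were separate at 24 h and 48 h, where APOA4-KO was higher by 1.02 ± 0.036 and 0.61 ± 0.036 on the log2 scale. The small difference at 0 h (0.10) lost the call in 12 of the 18 refits that left out 1 library. ENO1 (2631 to 6284 CPM), the common enolase, was 509.5 ± 6 FPKM in HepG2 at 0 h against 10.3 ± 0.411 FPKM for ENO2, and rose by 0.83 and 0.80 at 48 h in HepG2 and APOA4-KO.

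GAPDH (4618 to 8769 CPM), which makes the first NADH of the pathway and is often used as a reference gene, had the highest level per length of the members, up to 3323 FPKM, and rose in each line and time, by 0.46 to 0.77. PGAM1 (443 to 709 CPM), the mutase, rose by 0.64 in HepG2 at 48 h and by 0.15 in APOA4-KO, where library sizes alone gave -0.0096. The interaction of PGAM1 at 48 h was -0.49 ± 0.028 (adjusted p = 7.52e-11 by edgeR). PKM (1800 to 2910 CPM), the pyruvate kinase of muscle and tumours, rose by 0.67 and 0.40 at 48 h. PKLR (31.1 to 61.4 CPM), the kinase of liver and red cells, fell in APOA4-KO at 24 h by 0.44. It was above its 0 h level there at 48 h by 0.28, and it did not pass the test in HepG2 at either time. The antisense gene HCN3 covers 17.55% of the exon bases of PKLR, and whether the counting used strand is not stated.

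Lactate dehydrogenase turns pyruvate into lactate. LDHA was 703 ± 9.32, 1384 ± 20.5 and 1578 ± 1.5 CPM (mean ± SD, n = 3) at 0 h, 24 h and 48 h in HepG2 and 1033 ± 5.47, 2026 ± 68.5 and 1834 ± 26 CPM in APOA4-KO. APOA4-KO started higher by 0.56 ± 0.02 on the log2 scale and its rise to 48 h was smaller, with an interaction of -0.34 ± 0.028 (adjusted p = 1.15e-08 by edgeR). LDHB was 4.21 ± 0.342, 4.59 ± 0.207 and 2.77 ± 0.751 CPM in HepG2 and 8.98 ± 0.543, 6.59 ± 3.93 and 4.78 ± 2.31 CPM in APOA4-KO. In APOA4-KO at 24 h, replicate 1 stood apart at 11.1 CPM of LDHB against 4.2 and 4.45 CPM, and without it the mean was 4.33 CPM. LDHB was higher in APOA4-KO at 0 h by 1.09 ± 0.33 (adjusted p = 0.0157 by edgeR), and that call was lost without HepG2 0 h replicate 1 (1.04, adjusted p = 0.0579). Its fall in APOA4-KO at 48 h (-0.91) was lost without APOA4-KO 0 h replicate 2 or 3 or 48 h replicate 2 or 3 (-0.91 to -0.70). Another gene on the same strand covers 33.4% of the exon bases of LDHB.

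The pyruvate dehydrogenase kinases, which phosphorylate the complex and shut it, moved in different directions. PDK1 (ENSG00000152256, chr2:172555373-172608669, plus strand) was at 16.9, 16.9 and 15.7 CPM at 0 h, 33.7, 34.8 and 33.2 CPM at 24 h and 88.2, 81.2 and 86.5 CPM at 48 h in HepG2. APOA4-KO held 24.6, 27 and 28.2 CPM of PDK1 at 0 h, 89.5, 89.2 and 88.5 CPM at 24 h and 66, 69.1 and 61.9 CPM at 48 h. The APOA4-KO libraries at 24 h lay just above those of HepG2 at 48 h, and by 48 h APOA4-KO had turned back. The log2 change was 1.04 ± 0.053 and 2.37 ± 0.054 in HepG2 and 1.74 ± 0.052 and 1.30 ± 0.052 in APOA4-KO. The interaction was 0.70 ± 0.073 at 24 h and -1.07 ± 0.073 at 48 h (adjusted p = 4.69e-07 and 1.04e-09 by edgeR).

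PDK3 (ENSG00000067992, chrX:24465221-24541862, plus strand), a kinase little inhibited by pyruvate, was at 12.1, 12.2 and 12.6 CPM at 0 h, 13.1, 13.5 and 12 CPM at 24 h and 18.7, 19.97 and 18.8 CPM at 48 h in HepG2. In APOA4-KO it was at 13.3, 13.6 and 12 CPM, 27.6, 31 and 30.9 CPM and 17.6, 16.1 and 15.1 CPM. The APOA4-KO libraries at 24 h stood above all others of PDK3. The log2 change in APOA4-KO was 1.20 ± 0.07 at 24 h and 0.33 ± 0.07 at 48 h, and the interaction at 24 h was 1.14 ± 0.099 (adjusted p = 5.17e-08 by edgeR).

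PDK2, the kinase with the highest level per length in each group but APOA4-KO at 24 h, fell. It was 77.2 ± 5.44, 52.9 ± 2.32 and 56.3 ± 2.07 CPM in HepG2 and 72 ± 2.27, 28.8 ± 2.53 and 48.3 ± 3.57 CPM in APOA4-KO. The log2 change was -0.55 ± 0.064 and -0.46 ± 0.064 in HepG2 and -1.32 ± 0.066 and -0.58 ± 0.064 in APOA4-KO, with an interaction of -0.78 ± 0.091 at 24 h (adjusted p = 1.9e-06 by edgeR). The antisense gene SAMD14 covers 38.6% of the exon bases of PDK2, and whether the counting used strand is not stated.

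PDK4 (ENSG00000004799, chr7:95583499-95596491, minus strand), the kinase induced by fasting, was low, with 21 to 115 counts per library. HepG2 held 0.617, 0.871 and 0.711 CPM of PDK4 at 0 h, 0.727, 0.54 and 0.908 CPM at 24 h and 0.223, 0.356 and 0.585 CPM at 48 h. APOA4-KO held 1.36, 1.28 and 1.25 CPM, 0.901, 0.694 and 0.308 CPM and 0.972, 1.19 and 0.987 CPM. The lines overlapped at 24 h and were separate at 0 h, where the difference did not pass the test (0.82 ± 0.37, adjusted p = 0.11 by edgeR), and at 48 h. APOA4-KO exceeded HepG2 at 48 h by 1.43 ± 0.38 on the log2 scale (adjusted p = 0.00394 by edgeR). The fall in APOA4-KO at 24 h (-1.03 ± 0.37) lost the call without any 1 of APOA4-KO 0 h replicates 1, 2 and 3 or 24 h replicates 2 and 3, the last giving -0.68.

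None of the subunits of the complex or of its phosphatases was past both limits by edgeR, and several passed the test at smaller changes. PDHA1 (42.4 to 52.3 CPM) and PDHB (31.5 to 51.8 CPM) form the E1 enzyme and DLAT (55.3 to 69.3 CPM) the E2 core, and over the 9 comparisons their largest log2 changes were 0.29, 0.54 and 0.15 in size. PDHB was higher in APOA4-KO at each time, by 0.31 to 0.54. PDHA1 fell in HepG2 at 24 h by 0.24, and its smaller fall at 48 h (-0.13) lost the call in 9 of the 18 refits that left out 1 library. The antisense gene MAP3K15 covers 21.3% of the exon bases of PDHA1, and the strand setting of the counting is not stated. The phosphatase PDP1, which reopens the complex, ranged from 1.61 to 3.69 CPM and did not pass the test, with a log2 difference between the lines of 0.50 ± 0.27 at 24 h (adjusted p = 0.148 by edgeR). PDP2 (12.8 to 21.7 CPM) fell in HepG2 at 24 h by 0.44 and in APOA4-KO at 48 h by 0.43.

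Every glycogen enzyme tested was higher at 48 h than at 0 h in both lines, although the rise of PGM1 in APOA4-KO was 0.088 and turned to -0.070 with library sizes alone. That rise was lost without APOA4-KO 48 h replicate 3 (0.073), and that of PYGL in HepG2 (0.12) without HepG2 48 h replicate 1 or 2 (0.12). GYS1 (ENSG00000104812, chr19:48968125-48993310, minus strand), the muscle form of glycogen synthase, was at 86.4, 94 and 90.7 CPM at 0 h, 90.2, 86 and 88.2 CPM at 24 h and 219.9, 209.8 and 208 CPM at 48 h in HepG2. In APOA4-KO it was at 93.8, 93.6 and 95.8 CPM, 196, 187 and 192 CPM and 165, 172 and 170.1 CPM. At 24 h GYS1 had not moved beyond its spread in HepG2 and had reached its highest level in APOA4-KO. The log2 change in HepG2 was -0.036 ± 0.033 at 24 h and 1.24 ± 0.033 at 48 h, against APOA4-KO values of 1.02 ± 0.033 and 0.84 ± 0.033. The interaction was 1.06 ± 0.047 at 24 h and -0.39 ± 0.047 at 48 h (adjusted p = 8.72e-12 and 1.63e-06 by edgeR).

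GBE1 (ENSG00000114480, chr3:81489699-81762161, minus strand), which puts branches into glycogen, was at 27.1, 25.9 and 28.3 CPM at 0 h, 41, 40.9 and 44.1 CPM at 24 h and 73.4, 71.4 and 70.4 CPM at 48 h in HepG2. The APOA4-KO libraries of GBE1 were at 34.6, 35.3 and 35.1 CPM, 146, 154 and 146 CPM and 123, 119.6 and 119 CPM. All groups were separate, and APOA4-KO was the higher line at each time. The log2 difference between the lines was 0.37 ± 0.039, 1.82 ± 0.039 and 0.75 ± 0.038 at 0 h, 24 h and 48 h, and the interaction at 24 h was 1.45 ± 0.055 (adjusted p = 8.92e-13 by edgeR).

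UGP2 (ENSG00000169764, chr2:63840940-63891562, plus strand), which makes the UDP-glucose that glycogen is built from, was at 47.6, 52.5 and 49 CPM at 0 h, 54.3, 59.1 and 63.2 CPM at 24 h and 103, 100.5 and 104 CPM at 48 h in HepG2. In APOA4-KO it was at 48.9, 50.9 and 52.3 CPM, 94.7, 108 and 94.4 CPM and 105, 97.7 and 104 CPM. The lines overlapped at 0 h and at 48 h and were separate at 24 h, when APOA4-KO was higher by 0.75 ± 0.058 on the log2 scale. At 48 h the change was 1.05 ± 0.058 in HepG2 and 1.01 ± 0.058 in APOA4-KO, the latter 0.999 without APOA4-KO 48 h replicate 3. PYGL (76.3 to 150 CPM), the phosphorylase that breaks glycogen down, was higher in APOA4-KO at each time, by 0.40, 0.68 and 0.77. PGM1, which links glucose 1-phosphate and glucose 6-phosphate, ranged from 109.7 to 224 CPM and was higher in APOA4-KO at 24 h by 0.82 ± 0.027 on the log2 scale.

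The change between 24 h and 48 h was then compared within each line, on libraries that the lines do not share. In HepG2, 24 of the 39 genes rose in this interval and the other 15 did not pass the test, beside 18.7% of all genes that rose and 11.9% that fell. In APOA4-KO, 14 rose and 9 fell, beside 21.9% and 19.4%, and library sizes alone, which moved the median of all genes by -0.13, gave 12 and 16 and turned PKM downward. In both lines, 11 genes rose (5.44% of all genes did), among them SLC2A1, SLC2A3, HK2, PFKFB3 and ENO2. A rise in HepG2 and a fall in APOA4-KO were found for 6.78% of all genes and for 8 members: PDK1, PDK3, PDP2, GYS1, GBE1, PGM1, LDHA and PGAM1. PGAM1's fall in APOA4-KO (-0.07) lost the call without APOA4-KO 48 h replicate 1.

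For PFKFB4, UGP2, PGK1, TPI1 and DLAT the rise passed the test in HepG2 and no change did in APOA4-KO, as for 6.44% of all genes. GAPDH, PKLR and PDK2 rose in APOA4-KO and did not pass the test in HepG2, as for 10.5% of all genes. The difference itself was tested as an interaction, added after these timings had been seen. It was lower in APOA4-KO for 18 genes and higher for 10, beside 20.6% and 18.8% of all genes. The 5 members with the largest differences downward were PDK1 (-1.77 ± 0.072, adjusted p = 7.78e-13 by edgeR), PFKFB4 (-1.73 ± 0.037), PDK3 (-1.45 ± 0.098), GYS1 (-1.45 ± 0.047) and GBE1 (-1.07 ± 0.054). PKLR (0.79 ± 0.094), PDK2 (0.66 ± 0.091) and ALDOA (0.49 ± 0.067) differed in the other direction. PDK4 did so too (1.62 ± 0.53), but not without HepG2 24 h replicate 3 or 48 h replicate 1 (1.43 and 1.33). Library sizes alone moved the median of all genes by -0.22 in that comparison and changed the sign of ENO1.

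**Figure D3:**
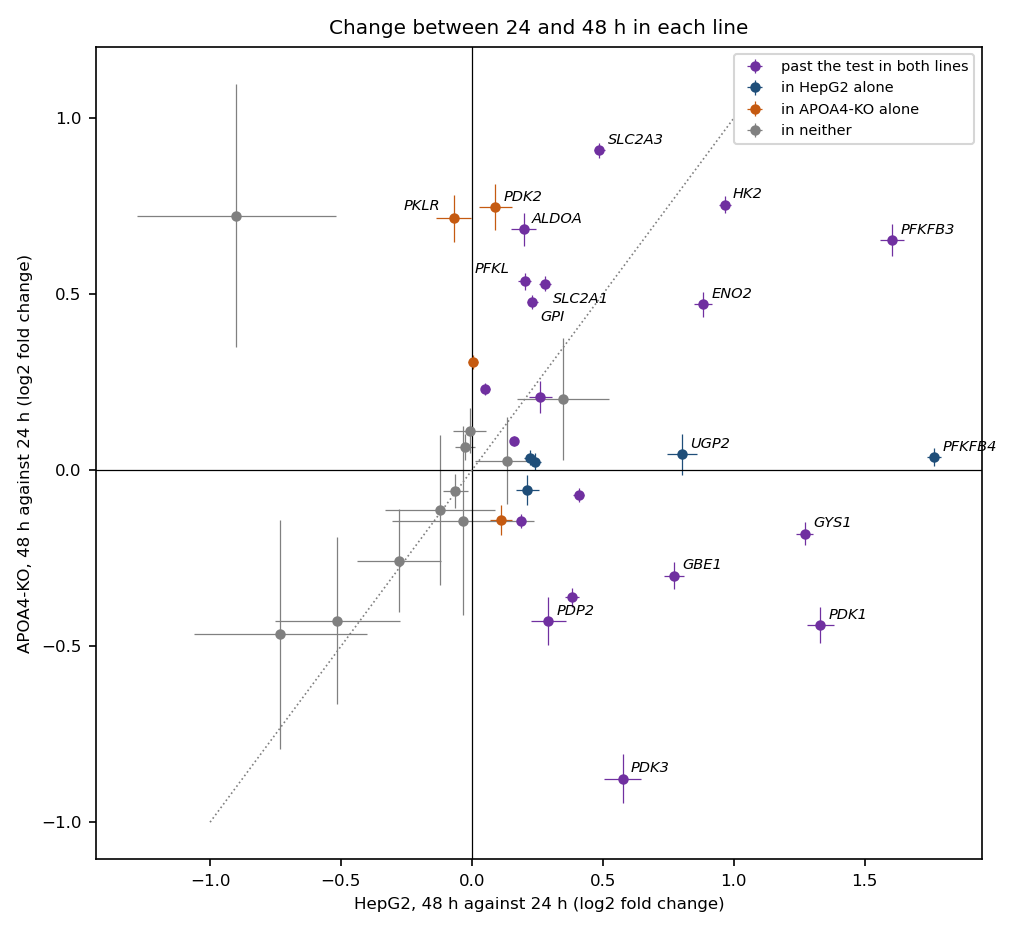
Log2 change from 24 h to 48 h in HepG2 (horizontal axis) and in APOA4-KO (vertical axis) for the 39 tested genes, with bars of 1 SE; colours give the line in which the change passed the test, and the dotted line marks equal change. PDK1 lies at 1.33 and -0.44, PFKFB4 at 1.77 and 0.038, and HK2 at 0.97 and 0.75.

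The part of the library taken by the 40 genes was then summed. In HepG2 they held 1.71% to 1.74% of all counts before treatment, 2.5% to 2.56% at 24 h and 3.02% to 3.06% at 48 h. In APOA4-KO they held 2.01% to 2.06%, 2.92% to 2.99% and 3.3% to 3.35%. The summed CPM was 1.55-fold and 1.75-fold that of 0 h in HepG2 at 24 h and 48 h and 1.48-fold and 1.83-fold in APOA4-KO, with no overlap between the groups. Each of these comparisons gave p = 0.1 in an exact two-sided permutation test, the smallest that 3 libraries against 3 allow. The sum is carried by the abundant members, and without GAPDH the folds at 48 h were 1.84 and 1.87.

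The makeup of families of related genes is given as shares of the summed FPKM, a measure per length. Among the kinases of pyruvate dehydrogenase, PDK1 made up 6.92% ± 0.69 (SD, n = 3) in untreated HepG2, 17.8% ± 0.271 at 24 h and 33.4% ± 0.419 at 48 h. In APOA4-KO its share was 11.2% ± 1.01, 45.9% ± 1.26 and 30.8% ± 2.36. PDK2 made up 87.7% ± 0.967, 75.3% ± 0.568 and 59.8% ± 0.226 in HepG2 and 82.3% ± 0.849, 40.05% ± 2.22 and 61.2% ± 2.98 in APOA4-KO. Per length, PDK1 was thus the larger of the pair in APOA4-KO at 24 h and the smaller in each other group. This order rests on the lengths behind FPKM, and the annotated exon bases number 14883 for PDK1 and 5481 for PDK2. In CPM, which is not divided by length, PDK1 stood above PDK2 at 48 h in both lines too.

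Among the PFKFB enzymes, PFKFB4 made up 66.1% ± 0.852, 71.6% ± 0.324 and 76.1% ± 0.732 in HepG2 at 0 h, 24 h and 48 h. Its share in APOA4-KO was 77.6% ± 0.374, 70.8% ± 0.0542 and 61.7% ± 0.405, lower at the later times, where that in HepG2 was higher. PFKFB3 took 22.7% ± 0.993 and 22.3% ± 0.863 in HepG2 at 0 h and 48 h and 16.7% ± 0.682 and 37.2% ± 0.543 in APOA4-KO. SLC2A3 went from 47.5% ± 0.31 to 57.2% ± 0.358 of the summed SLC2A1, SLC2A2 and SLC2A3 in HepG2, and from 39.2% ± 0.213 to 62.6% ± 0.382 in APOA4-KO. The other families were dominated by 1 member in every group, such as HK2 at 95.8% ± 0.38 and LDHA at 98.3% ± 0.108 in APOA4-KO at 0 h. Over the 10 families with more than 1 detected member, 234 comparisons of shares were made, each by an exact permutation test whose smallest p is 0.1 (0.144 after Benjamini-Hochberg adjustment), which 163 reached. The shares of a family add up to the whole, so these tests are not independent. In a family of only a pair, such as HK1 and HK2, both tests are mirror images with the same p.

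**Figure D4:**
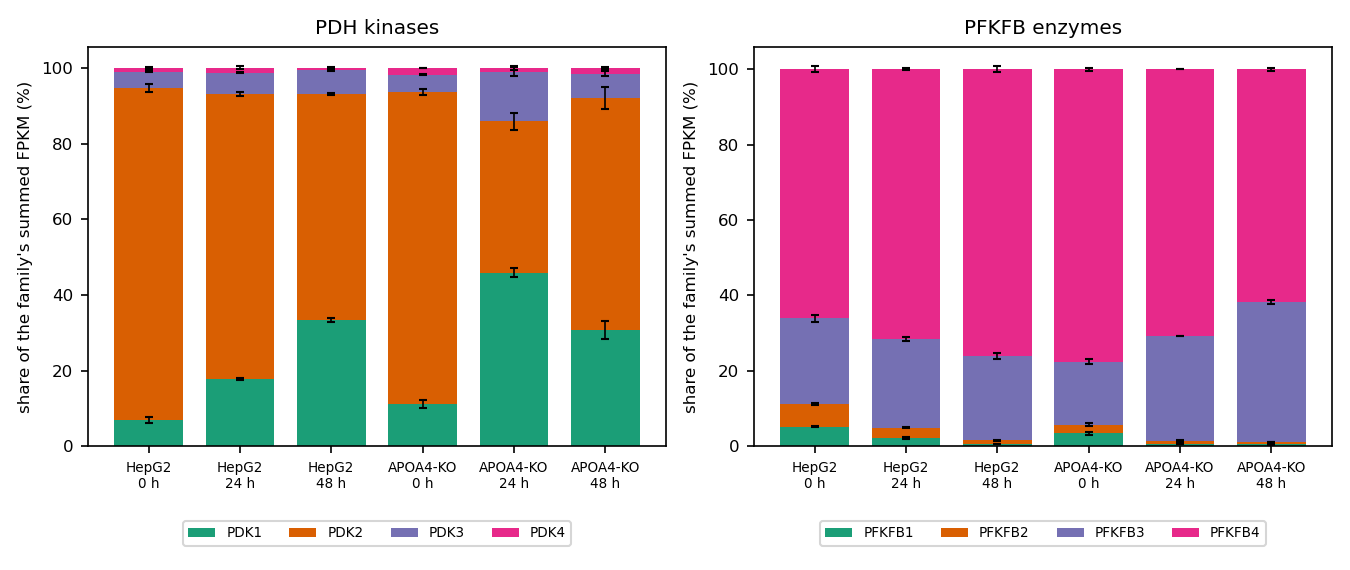
Mean share of each gene in the summed FPKM of the pyruvate dehydrogenase kinases (left) and of the PFKFB enzymes (right) in the 6 groups; bars at the top of each segment are the SD of that segment over 3 libraries. PDK1 goes from 6.92% to 33.4% in HepG2 and peaks at 45.9% in APOA4-KO at 24 h.

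Of 53 further genes of these pathways, among them other transporters, glucokinase with its regulator, glycogen-targeting subunits of protein phosphatase 1 and phosphorylase kinases, 46 were tested. In HepG2 at 24 h, 5 of them rose and 16 fell (all genes: 11.4% and 18.3%), whereas more of the members rose than fell. In APOA4-KO at 24 h, 15 rose and 14 fell (all genes: 21.5% and 22.8%). In HepG2 at 48 h, 12 rose and 12 fell (all genes: 13.1% and 14.6%), and in APOA4-KO 15 rose and 16 fell (all genes: 23.9% and 25.9%), at median log2 changes of -0.027 and -0.0086, beside the medians of all genes given above. The largest rises past both limits in HepG2 were PPP1R3C (1.8 ± 0.083), which brings the phosphatase to glycogen, SLC2A5 (1.52 ± 0.42), the fructose carrier, and SLC2A14 (1.21 ± 0.065). In APOA4-KO they were SLC2A5 (2.58 ± 0.43), SLC2A14 (2.11 ± 0.066) and STBD1 (2.0 ± 0.34), a glycogen-binding protein whose 48 h level was 24.6 ± 14.3 CPM. SLC2A5 was low in HepG2, at 1.21 CPM at 48 h against 0.418 CPM at 0 h. In APOA4-KO its level was 2.29 CPM at 48 h against 0.38 CPM at 0 h. The calls of these further genes were not checked by leaving out 1 library. SLC2A14, near-identical to the far more abundant SLC2A3, stood at 29.73 CPM in HepG2 and 53.45 CPM in APOA4-KO at 48 h. Whether reads of SLC2A3 made up its rises was not tested. The falls past both limits in APOA4-KO were SLC2A6 (-1.26 ± 0.058) and PPP1R3D (-1.14 ± 0.22).

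Between the lines at 48 h, 14 of the 46 genes were higher in APOA4-KO and 21 lower, beside 23.5% and 27.3% of all genes. PPP1R3G (1.93 ± 0.3) and SLC2A12 (1.89 ± 0.47, at 0.946 CPM in APOA4-KO against 0.255 CPM in HepG2) were among the 3 largest rises. The third, PHKG1, had 21, 30 and 0 counts in APOA4-KO and none in HepG2. The lines thus overlapped at 0 counts, and no lower limit of the fold can be given. SLC2A6 (-1.46 ± 0.058), SLC2A8 (-1.08 ± 0.12) and NHLRC1 (-2.96 ± 1) were the largest falls, NHLRC1 at 0.0527 ± 0.0914 CPM in APOA4-KO against 0.424 ± 0.203 CPM in HepG2.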

How the data were processed

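Poly(A) RNA of 18 libraries, 3 for each of the 6 groups in the labels, had been sequenced. The labels describe marking of the second strand with dUTP, and the methods name a NEBNext Ultra kit without saying whether it kept strand. Per the methods and labels, the authors trimmed reads with fastp, aligned them to GRCh38.p13 with HISAT2 and deposited raw counts per gene and FPKM values. The methods name featureCounts for counting and the labels name StringTie, and neither states the strand setting or how reads with several matches were counted. A count of 4 was 2.66 to 3.12 times as frequent as its neighbours in the deposited counts, with no reason given.

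From the deposited counts, 19743 of 61806 genes passed filterByExpr. They were fitted with edgeR 4.0.16 (TMM, quasi-likelihood test, R 4.3.3) in one model of the 6 groups with all 18 libraries, and p-values were adjusted by the Benjamini-Hochberg method over all genes tested. The 9 comparisons were those between times within a line, between lines at a time, and the differences between lines in change. FPKM served for levels between genes, and limma 3.58.1 on log2(FPKM + 1) and DESeq2 1.42.0 were alternatives. The scripts were tested on simulated data. Same-numbered libraries did not deviate together (correlations of -0.302 to 0.154), so the numbers were not used as a block. Genes named with all library values were those past both limits in at least 2 comparisons. Those past both limits in 1 comparison are given as means, and the others by their range, with log2 changes and counts of calls. The wider list names up to 3 genes in each direction. Members and lists were chosen with earlier results of these data known. Gene positions are those of the GENCODE annotation on GRCh38, and promoter sequences and starts are from RefSeq on GRCh38.p14. Pseudogenes of the members held at most 1.38% of a member's counts in any library (TPI1). The floor given for GYS2 covers counting error only, while the SE and SD values also carry the spread between libraries.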

Additional observations from a re-analysis of the deposited data

Results flagged for a closer look

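Unequal change of the lines from their 0 h level was tested as an interaction in edgeR, with Benjamini-Hochberg adjustment over all genes, and 8 member results were past both limits. At 24 h these were HK1 (1.67), PFKFB3 (1.35), PDK3 (1.14), GYS1 (1.06) and GBE1 (1.45), each with the larger upward change in APOA4-KO on the log2 scale. At 48 h they were HK1 (1.69), again with the larger upward change in APOA4-KO, and PFKFB4 (-1.32) and PDK1 (-1.07), with the larger upward change in HepG2. Single libraries that stand apart were looked for through refits that left out 1 library and for LDHB, and by no other search.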

How the results depend on the processing

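Of 66 member results past both limits, 44 stayed past them in all 27 refits and 22 were lost in at least 1. The fit with limma on log2(FPKM + 1) understates changes of low genes and also lacks TMM scaling, which bears on abundant genes too. With it, the number of members past both limits was 1 in HepG2 at 24 h, 8 in APOA4-KO at 48 h and 1 for the line difference in the change from 0 h to 48 h. In the comparison of APOA4-KO with HepG2 at 0 h it was 0, where HK1 (0.472), PFKFB4 (0.994) and LDHB (0.756) kept an adjusted p under 0.05 and fell short of the limit of 1, and edgeR and DESeq2 gave 3. Library size alone gave 3 in HepG2 at 24 h in place of 5. The fold of the summed level in HepG2 at 24 h was 1.47 with library size alone, 1.584 with RLE size factors and 1.457 with FPKM. In HepG2 at 48 h it was 1.707 with FPKM and 1.842 without GAPDH. In APOA4-KO it was 1.406 with FPKM at 24 h, and at 48 h 1.639 with library size alone, 1.589 with FPKM and 1.874 without GAPDH.

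Leaving out 1 library at a time gave 5 members past both limits in HepG2 at 24 h, 12 to 13 at 48 h, 12 to 16 in APOA4-KO at 24 h and 12 to 14 at 48 h. Between the lines it gave 2 to 3 before treatment, 9 at 24 h and 3 at 48 h, and for the line differences 5 to 6 at 24 h and 3 at 48 h. The members that changed from 24 h to 48 h numbered 23 to 27 in HepG2, 23 to 24 in APOA4-KO and 27 to 28 for the difference, which was chosen after seeing the data, as were the FPKM sums. The summed folds ran from 1.539 to 1.556 and 1.741 to 1.758 in HepG2 and from 1.462 to 1.496 and 1.816 to 1.848 in APOA4-KO. Of 327 member results past the test, 24 were ended by leaving out 1 library, in 18 genes. The replicate numbers share only a number, and the fit with the replicate block gave 5 and 12 members in HepG2 and 13 and 13 in APOA4-KO, as without the block. The low counts of PDK4, HK1 and PFKFB1 limit what can be said of them.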
